A study of Mus musculus with 17 samples.

Results

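The genes described here encode enzymes and accessory subunits that build N-glycan precursors and glycosylphosphatidylinositol (GPI) anchors in the endoplasmic reticulum (ER). The list was set by gene name, with earlier results of these data known. It names 45 genes: the Alg, Dpm and dolichol genes, the ER glucosidases and the Pig and Pgap genes of the GPI pathway. Of these, 44 were found under their own symbol among the 55416 gene IDs of the count files, and all 44 passed the filter on low counts. They comprise 23 N-glycan and dolichol genes and 21 GPI genes. Pigy had no ID of its own and has no value here. The list is broader than a set of synthesis enzymes, since it also holds the trimming glucosidases Mogs, Ganab and Prkcsh and the anchor-remodelling enzymes Pgap1 and Pgap2.

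N-glycans are assembled on the lipid dolichol in the ER membrane. Sugars are added on the cytosolic face, the intermediate is flipped, and further sugars are added in the lumen before oligosaccharyltransferase moves the finished glycan to a new protein. GPI anchors are built in the same membrane on phosphatidylinositol, use the same dolichol-linked mannose, and are attached by a transamidase to proteins that then sit at the cell surface. Most of these enzymes are membrane proteins, and mRNAs of membrane and secretory proteins are typically translated by ribosomes bound to the ER.

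The cells were mouse embryonic stem cells of the line E14Tg2a.4, kept in serum with leukemia inhibitory factor, and every group carried ribosomal protein Rpl31 with a FLAG, TEV and AviTag sequence (Rpl31-FTA). ALIBi, a proximity biotinylation system aimed here at the ER, marked ribosomes, which were purified by their biotin. PolyA RNA of these ER ribosomes was sequenced beside whole-cell RNA of the same lysates. Cells had received a scramble siRNA (3 whole-cell and 2 ER-ribosome libraries, replicates 2 and 3), an siRNA against Nmd3, the export adaptor of the large ribosomal subunit, or an siRNA against Gnl3, the nucleolar GTPase nucleostemin (3 libraries of each fraction for both). All groups share the tagged line, so no untagged control enters, and whether the line is 1 clone is not given in the sources used here.

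Libraries held 15.2 to 29.9 M gene counts. The submitters' labels exclude 2 whole-cell libraries as outliers, Nmd3 siRNA replicate 2 and Gnl3 siRNA replicate 3, so the values below rest on the other 15 unless stated. In the excluded Nmd3 library 22 of the 44 genes lay below all 7 kept whole-cell libraries and 6 above, and in the excluded Gnl3 library 20 lay below and 13 above. The matching share of all genes was not computed, so these counts do not set the 44 apart. Over all genes that passed the filter, log2 CPM of the excluded libraries correlated with the kept whole-cell libraries at 0.922 to 0.931 (Nmd3) and 0.936 to 0.942 (Gnl3). Kept whole-cell libraries correlated with each other at 0.988 to 0.993. Markers of embryonic stem cells (10 genes) summed to 6705 to 10330 counts per M gene counts (CPM) in the kept libraries, against 11.1 to 16.4 for 6 primitive endoderm markers and 21.6 to 32.2 for 6 germ layer markers. The stem cell markers summed higher on ER ribosomes (9246 to 10330 CPM) than in whole-cell libraries (6705 to 7683 CPM). The primitive endoderm markers summed lower there (11.1 to 13.7 against 14.0 to 16.4 CPM), and the germ layer ranges overlapped. The 8 fibroblast and feeder markers were low and also moved with the fraction. They summed to 14.3 to 19.4 CPM in whole-cell and 34.3 to 42.0 CPM in ER-ribosome libraries. Of the 4 that could be tested, 1 was called higher on ER ribosomes in scramble cells (Thy1), and none of the 8 was at 0 in all libraries. Mitochondrial transcripts took 1.15% to 2.03% of the kept whole-cell libraries and 0.0204% to 0.0239% of the ER-ribosome libraries. The part of these differences in the results below was not tested. The targeted genes fell: Nmd3 was at 153, 154 and 150.2 CPM in the scramble whole-cell libraries against 43.7 and 43.2 CPM after its siRNA, and Gnl3 was at 272, 270.1 and 256 CPM in scramble and at 70.2 and 54.2 CPM after its own.

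The coding stretches below come from Alg14, Pigt, Piga, Alg13 and Dpm1, whose values are given further on. Each is 90 bases of the transcript that GENCODE M21 marks as principal (APPRIS), read 5′ to 3′. The stretches start at the start codon, except that of Piga, which starts at codon 419. Windows of 19 residues were scored by mean Kyte-Doolittle hydropathy, where a value above 1.6 is a usual sign of a signal or membrane segment. Capitals mark the codons of the most hydrophobic window at or shortly after the earliest one that passes 1.6. A stretch without capitals belongs to a protein with no passing window anywhere.
Alg14: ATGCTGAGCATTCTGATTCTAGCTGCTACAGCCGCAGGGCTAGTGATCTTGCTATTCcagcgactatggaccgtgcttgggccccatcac
Pigt: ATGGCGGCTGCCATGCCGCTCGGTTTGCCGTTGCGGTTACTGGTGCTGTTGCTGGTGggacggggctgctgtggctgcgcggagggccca
Piga: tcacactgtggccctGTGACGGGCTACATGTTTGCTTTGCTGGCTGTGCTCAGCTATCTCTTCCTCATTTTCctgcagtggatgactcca
Alg13: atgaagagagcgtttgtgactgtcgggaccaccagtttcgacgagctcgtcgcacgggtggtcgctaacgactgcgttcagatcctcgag
Dpm1: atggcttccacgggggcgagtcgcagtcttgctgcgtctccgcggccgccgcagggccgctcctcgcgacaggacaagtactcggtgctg
In Alg14 and Pigt the window covers codons 1 to 19. In Piga it covers codons 424 to 442 of 485, near the end of the protein.

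The recovery of these mRNAs with ER ribosomes, relative to the lysate, was asked first in scramble cells. No library of all ribosomes, or of ribosomes outside the ER, was among the samples. Location at the ER and binding to ribosomes as such therefore cannot be told apart in these comparisons. By edgeR's quasi-likelihood test, with p-values adjusted by Benjamini-Hochberg over 18271 genes and a call at an adjusted p under 0.05, 32 of the 44 were higher on ER ribosomes, 6 were lower and 6 were not called. Of all genes tested, 25.1% were higher and 25.3% lower. The median log2 change of the 44 was 0.53, beside 0.02 over all genes. The 23 N-glycan and dolichol genes had 18 higher and 2 lower (median 0.56), and the 21 GPI genes 14 higher and 4 lower (median 0.52). Changes are relative to the other RNAs of a library, since the counts carry no measure of RNA per cell, and fewer cells of a type and less RNA per cell cannot be told apart.

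**Figure D1:**
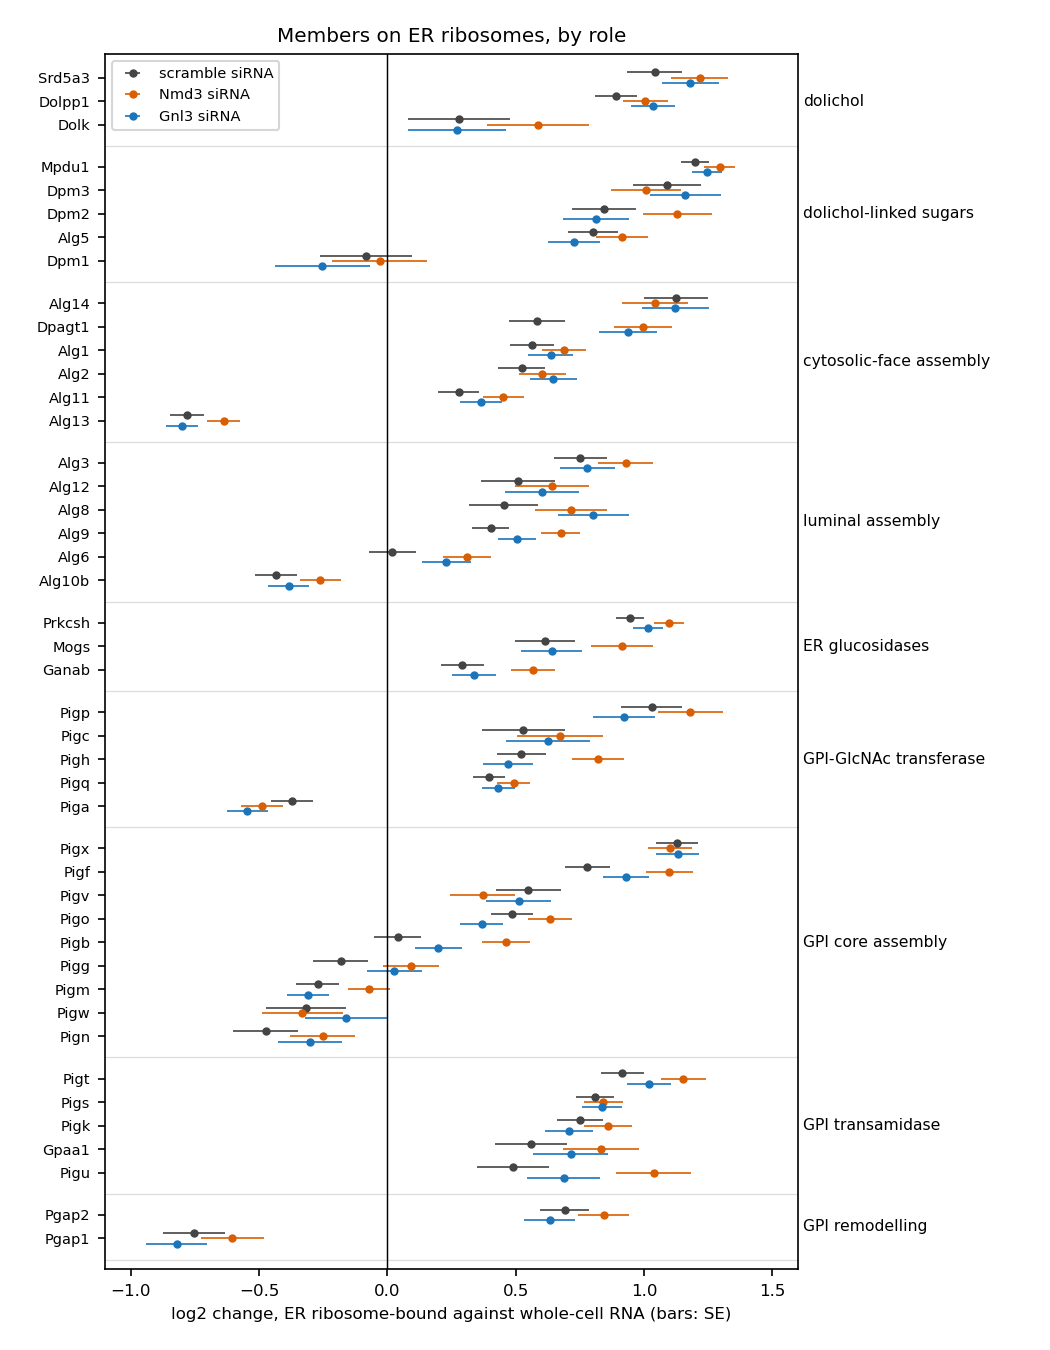
Log2 change (x axis) between ER ribosome-bound and whole-cell RNA for the 44 genes, grouped by role, after scramble (black), Nmd3 (orange) or Gnl3 siRNA (blue). Points are edgeR estimates and bars their standard errors. Most genes lie right of 0 after each siRNA, while Alg13, Alg10b, Piga and Pgap1, called lower in all 3, lie left of 0.

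Among the genes that make and recycle dolichol, Srd5a3, a reductase of dolichol synthesis, was at 9.35, 10.2 and 10.7 CPM in the 3 scramble whole-cell libraries against 20.6 and 21.7 CPM on ER ribosomes. The fractions did not overlap, and its log2 change was 1.04 ± 0.11 (SE; edgeR's quasi-likelihood test, adjusted p = 2.2e-10). Dolpp1, the phosphatase that recovers dolichol phosphate, was higher by 0.89 on the log2 scale. Dolk, the kinase that makes dolichol phosphate, had a change of 0.28 ± 0.20 and was not called.

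The genes for dolichol-linked mannose and glucose split by subunit. Mpdu1, which cells need to use both lipid-linked sugars, had the highest change of the 44, with 89.7, 95.3 and 84.4 CPM in whole-cell libraries against 209.9 and 209 CPM on ER ribosomes, a log2 change of 1.20 ± 0.06 (edgeR's quasi-likelihood test, adjusted p = 2.8e-19). Dpm3, the membrane subunit that holds dolichol-phosphate-mannose synthase at the ER, was at 8.22, 8.80 and 7.69 CPM against 19.9 and 15.7 CPM, a log2 change of 1.09 ± 0.13. In both genes every ER-ribosome library lay above every whole-cell library. Dpm2, the other membrane subunit, was higher by 0.84 and Alg5, which makes dolichol-phosphate glucose, by 0.80.

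Dpm1, the catalytic subunit of the same synthase, was not called. Its levels were 5.27, 5.83 and 6.81 CPM in the scramble whole-cell libraries against 6.96 and 4.60 CPM on ER ribosomes. The fractions overlapped, and the log2 change was -0.08 ± 0.18. After Nmd3 siRNA Dpm1 was at 5.68 and 5.48 CPM in whole-cell libraries against 4.87, 5.21 and 6.37 CPM on ER ribosomes, and after Gnl3 siRNA at 5.46 and 5.73 CPM against 5.16, 4.75 and 4.59 CPM. Thus only after Gnl3 siRNA did the ranges part, with ER ribosomes lower, and there too the gene was not called (log2 change -0.25 ± 0.18). Dpm1 shares 895 exonic bases with the same-strand gene Gm20716 in the GENCODE M21 annotation, so reads may have been left uncounted or assigned to either gene. The same limit holds for Pgap2 (606 bases), Pign (364), Pigq (330), Pigp (234), Pigh (212), Pigc (80) and Alg10b (53), which also overlap same-strand genes.

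On the cytosolic face, 5 of 6 assembly genes were higher on ER ribosomes and the remaining gene was lower. Dpagt1, which starts the glycan by adding N-acetylglucosamine phosphate to dolichol phosphate, was at 18.3, 18.2 and 20.6 CPM in whole-cell libraries against 28.0 and 30.2 CPM on ER ribosomes (log2 change 0.58 ± 0.11). The mannosyltransferases Alg1, Alg2 and Alg11 were higher by 0.56, 0.52 and 0.28.

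A wide contrast lay within a single enzyme. Alg13 and Alg14 together add the next N-acetylglucosamine: Alg14 is the membrane anchor, and Alg13 carries the catalytic activity and binds to it from the cytosol. Alg14 was at 7.34, 8.07 and 8.65 CPM in the scramble whole-cell libraries against 16.1 and 19.7 CPM on ER ribosomes. Alg13 was at 363, 349 and 362 CPM against 207 and 217 CPM.

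All ER-ribosome libraries thus lay above the whole-cell libraries for Alg14 and below them for Alg13. The log2 changes were 1.12 ± 0.12 for Alg14 (edgeR's quasi-likelihood test, adjusted p = 1.3e-09) and -0.78 ± 0.07 for Alg13 (edgeR's quasi-likelihood test, adjusted p = 3.05e-11). After Nmd3 siRNA Alg14 was at 9.93 and 8.28 CPM in whole-cell libraries against 17.4, 18.9 and 20.0 CPM on ER ribosomes, while Alg13 was at 305 and 332 CPM against 186, 229.6 and 203 CPM. After Gnl3 siRNA Alg14 was at 8.55 and 8.30 CPM against 18.2, 17.7 and 21.1 CPM, and Alg13 at 338 and 349 CPM against 203, 198 and 209 CPM. In each siRNA the order of the fractions was the same as in scramble, without overlap. Counts of Alg13 cover all its isoforms, of which the transcript shown above, with 165 codons, is only 1.

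**Figure D2:**
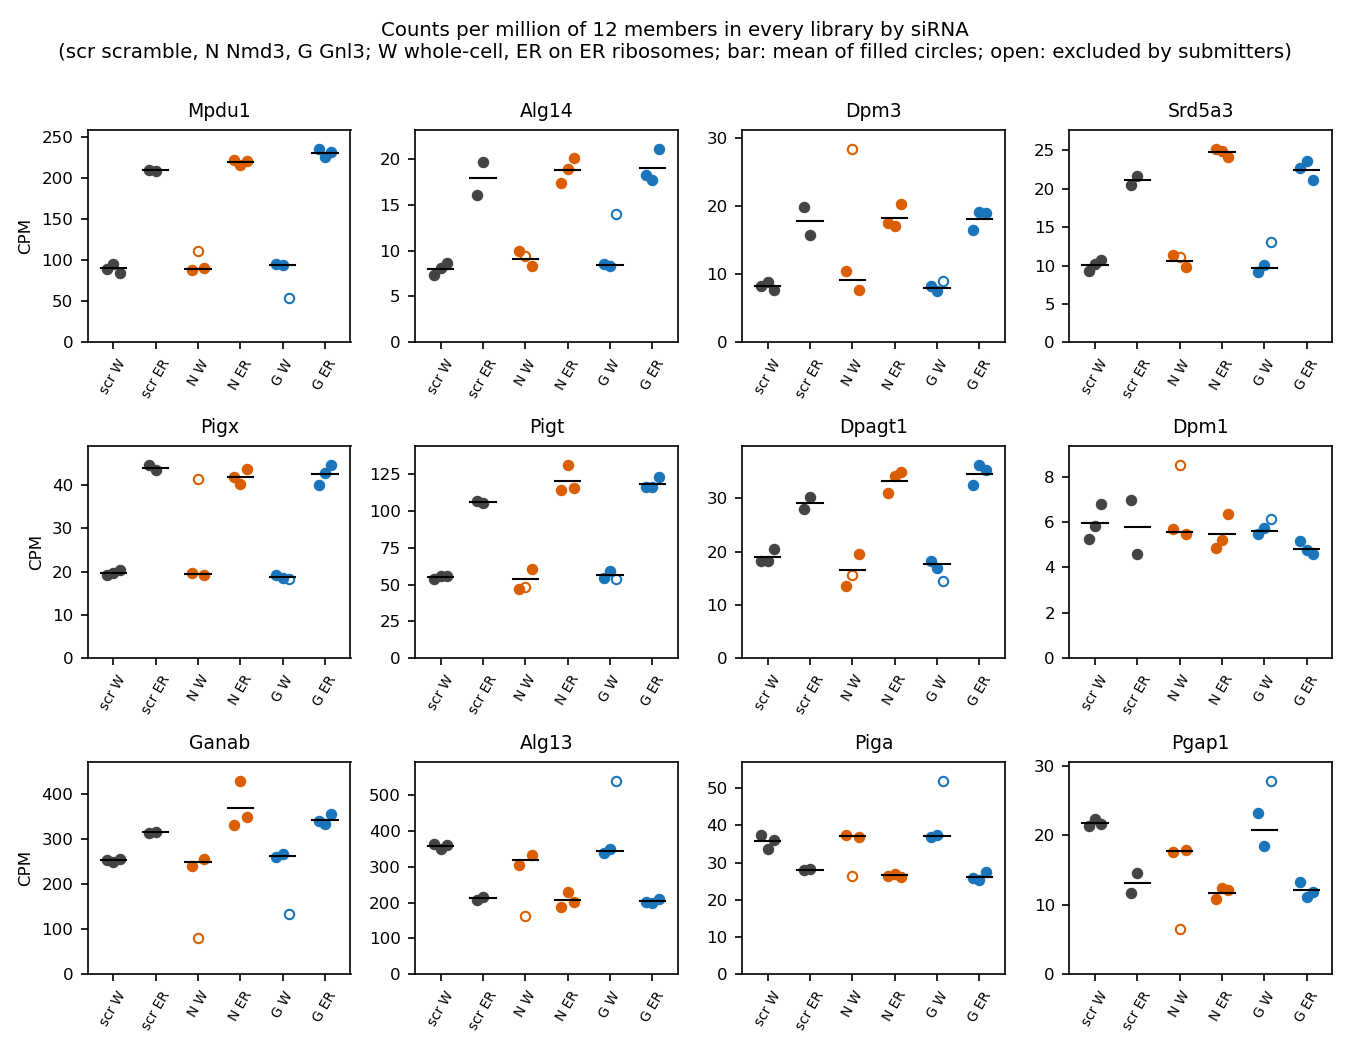
CPM (y axis, from 0) of 12 of the genes in each of the 17 libraries (x axis: siRNA and fraction). Filled circles are the 15 kept libraries, open circles the 2 whole-cell libraries that the submitters' labels exclude, and bars the means of the kept ones. Alg14 rises from whole-cell to ER-ribosome libraries after each siRNA, Alg13, Piga and Pgap1 fall, and Dpm1 stays between 4.59 and 6.96 in the kept libraries.

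The luminal assembly genes gave 4 of 6 higher. The mannosyltransferases Alg3, Alg9 and Alg12 were higher by 0.75, 0.40 and 0.51, and the glucosyltransferase Alg8 by 0.45. Alg6, which adds the earliest glucose, had a change of 0.02 ± 0.09 in scramble and was not called there, but was called higher after Nmd3 siRNA (0.31) and after Gnl3 siRNA (0.23). Alg10b, which adds the last glucose, was lower: 58.8, 54.3 and 57.8 CPM in whole-cell libraries against 39.8 and 45.9 CPM on ER ribosomes, a log2 change of -0.43 ± 0.08 with no overlap.

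All 3 trimming glucosidase genes were higher on ER ribosomes. Ganab, the catalytic subunit of glucosidase II, was at 253.5, 249 and 257 CPM in whole-cell libraries against 314 and 316.5 CPM on ER ribosomes, a log2 change of 0.29 ± 0.08. Prkcsh, its regulatory subunit that holds the enzyme in the ER, was higher by 0.95 ± 0.06, and Mogs, glucosidase I, by 0.61. The fractions of Ganab did not overlap, although its change was among the smallest of the called genes.

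In the GPI pathway, the complex that transfers N-acetylglucosamine to phosphatidylinositol showed a split like that of Alg13 and Alg14. Its subunits Pigp, Pigc, Pigh and Pigq were higher by 1.03, 0.53, 0.52 and 0.40. Piga, the catalytic subunit, was lower: it was at 37.5, 33.6 and 36.1 CPM in the scramble whole-cell libraries against 28.0 and 28.2 CPM on ER ribosomes, a log2 change of -0.37 ± 0.08 (edgeR's quasi-likelihood test, adjusted p = 0.00022). No ER-ribosome library reached the whole-cell range.

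The same held for Piga after the other siRNAs. Nmd3 siRNA libraries held 37.3 and 36.7 CPM in whole-cell libraries against 26.4, 27.0 and 26.2 CPM on ER ribosomes (log2 change -0.49 ± 0.08), and Gnl3 siRNA libraries 36.8 and 37.3 CPM against 25.8, 25.4 and 27.4 CPM (-0.55 ± 0.08). Piga was called lower in all 3 comparisons, which use different libraries.

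Of the 9 genes that extend the GPI core, 4 were higher, 2 lower and 3 not called. Pigx, the stabilising partner of the mannosyltransferase Pigm, was at 19.3, 19.8 and 20.3 CPM in whole-cell libraries against 44.5 and 43.6 CPM on ER ribosomes, a log2 change of 1.13 ± 0.08. Pigm itself was lower by a small amount (log2 change -0.27 ± 0.08). Pigf, the shared partner of the ethanolamine phosphate transferases, was higher by 0.78, Pigv, which adds the next mannose, by 0.55, and Pigo, which adds ethanolamine phosphate to the last core mannose, by 0.49.

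Pign, which adds ethanolamine phosphate to the earliest mannose, was at 15.3, 14.0 and 15.2 CPM in whole-cell libraries against 10.1 and 11.6 CPM on ER ribosomes (log2 change -0.47 ± 0.12), with no overlap. Pigw, which acylates the inositol (-0.32 ± 0.16), Pigg, which adds ethanolamine phosphate to the middle mannose (-0.18 ± 0.11), and the mannosyltransferase Pigb (0.04 ± 0.09) were not called. Exons of Pigb share 4030 bases with genes of the other strand in GENCODE M21, and the strand setting of counting is not given in the sources used here, so its counts may hold those of its neighbours. Pigh (992 bases) and Pigq (957 bases) have shorter overlaps of this kind, and those of the 10 other genes concerned span 31 to 500 bases.

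The 5 subunits of the GPI transamidase, which attaches the finished anchor, were all higher. Pigt, which holds the complex together, was at 54.1, 55.7 and 56.0 CPM in the scramble whole-cell libraries against 106.8 and 105.4 CPM on ER ribosomes, a log2 change of 0.92 ± 0.08 (edgeR's quasi-likelihood test, adjusted p = 3.6e-10). Pigs was higher by 0.81, the catalytic subunit Pigk by 0.75, Gpaa1 by 0.56 and Pigu by 0.49. The fractions of Pigt were far apart: the lowest ER-ribosome library of any siRNA was at 105.4 CPM and the highest kept whole-cell library at 60.4 CPM.

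The remodelling enzymes went opposite ways. Pgap1, which removes the acyl chain from the inositol in the ER, was at 21.3, 22.3 and 21.6 CPM in whole-cell libraries against 11.6 and 14.6 CPM on ER ribosomes, a log2 change of -0.75 ± 0.12. Pgap2, which takes part in lipid remodelling in the Golgi, was higher by 0.69. Thus the 44 genes ranged from 0.58-fold (Alg13) to 2.29-fold (Mpdu1) in scramble cells.

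The comparison was repeated in the cells given the other siRNAs. After Nmd3 siRNA 35 of the 44 were higher, 4 lower and 5 not called (24.5% of all genes higher, 25.6% lower), with a median of 0.70 beside 0.01 over all genes. After Gnl3 siRNA 33 were higher, 6 lower and 5 not called (23.3% of all genes higher, 24.9% lower), with a median of 0.64 beside 0.02. The same 32 genes were called higher in all 3 siRNAs, and Alg10b, Alg13, Pgap1 and Piga were called lower in all 3. Dpm1, Pigg and Pigw were called in none, Alg6, Dolk, Pigb, Pigm and Pign in 1 or 2, and no gene was called in opposite directions.

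In single cultures with both fractions kept, 34 to 36 of the 44 genes had a positive log2 ratio of ER ribosomes to whole cell. Their medians ran from 0.49 (scramble replicate 2) to 0.68 (Nmd3 siRNA replicate 1). Medians over all genes ran from -0.001 (scramble replicate 2) to 0.02 (scramble replicate 3). The share of all genes with a positive ratio in a single culture was not computed. Over group ranges in scramble cells, the ER-ribosome libraries lay wholly above the whole-cell libraries for 33 genes, wholly below for 7, and overlapped for Dolk, Dpm1, Pigb and Pigg. With only 2 ER-ribosome libraries such ranges are narrow and part easily. The share of all genes whose ranges part was not computed, so these range counts have no background. By edgeR's test, a different measure, 50.3% of all genes were called there in either direction.

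These counts depended on the 2 excluded libraries. With them in the fit, 16 of the 44 genes were called in scramble (15 higher, 1 lower, where 5.14% and 7.56% of all genes were called). After Nmd3 siRNA 23 were called (22 higher, 1 lower, beside 7.71% and 7.5% of all genes) and after Gnl3 siRNA 28 (24 higher, 4 lower, beside 10.3% and 14.2%). The medians of the 44 stayed at 0.52, 0.69 and 0.64, beside 0.02, -0.11 and 0.02 over all genes in these fits. The biological coefficient of variation of the fit was 0.0625 without them and 0.236 with them.

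Levels are compared between genes here only as CPM per kb of transcript, the mean of scramble whole-cell libraries. Alg13 was highest at 199, followed by Mpdu1 at 68.0, Ganab at 65.6, Prkcsh at 61.0 and Pigf at 27.2. Pgap1 at 2.05, Pigc at 2.44, Pigv at 2.54 and Dpm1 at 2.60 were lowest. Divided by the length of all exons together, Alg13 remained highest at 52.3 but Ganab (46.4) preceded Mpdu1 (37.1), and Dpm1 was lowest at 0.797. On this per-length scale Alg13 thus exceeded its partner Alg14, at 3.94 per kb of transcript or 3.21 per kb of all exons.

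The change also followed mRNA length. Over 14202 genes with an annotated coding sequence, Spearman's rho between coding length and log2 change in scramble cells was -0.53, and over the 44 genes -0.47, given as descriptions across genes that share the same libraries. After a smooth trend on coding length was taken off, the median of the 44 was 0.44 in scramble, 0.64 after Nmd3 siRNA and 0.53 after Gnl3 siRNA, and 35, 36 and 36 of them lay above the trend (46.9%, 44.3% and 43.6% of all genes).

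Transcript length, an alternative added after the data were seen, separated the genes that were lower on ER ribosomes. Pgap1, Alg10b and Pigm have transcripts of 10583, 6644 and 7554 bases and lay 0.05, 0.05 and 0.31 above the transcript-length trend in scramble cells, although they lay below the coding-length trend by 0.45, 0.51 and 0.40. Alg13, Pign and Piga lay below both trends, by 1.05, 0.35 and 0.31 on transcript length. Pigw (-0.41) and Dpm1 (-0.25), which were not called, also lay below the transcript-length trend. Dpm3 (404 bases), Pigp (758), Pigx (818) and Dpm2 (869), at the short end, lay above it by 0.63, 0.55, 0.65 and 0.38. Their log2 changes were 1.09, 1.03, 1.13 and 0.84. In scramble cells Spearman's rho between transcript length and log2 change was -0.53 over all genes and -0.65 over the 44. Of the 44, 36 lay above the transcript-length trend, beside 47.0% of all genes. Both trends take 1 transcript per gene, whereas counts cover all isoforms. All exons together span 6850 bases for Alg13, 13595 for Pign and 6385 for Piga, against 1802, 4006 and 3594 in the transcripts used. They span 16611 for Pgap1, while for Alg10b and Pigm they equal the transcript used. Distances from the trend with other isoforms were not examined.

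**Figure D3:**
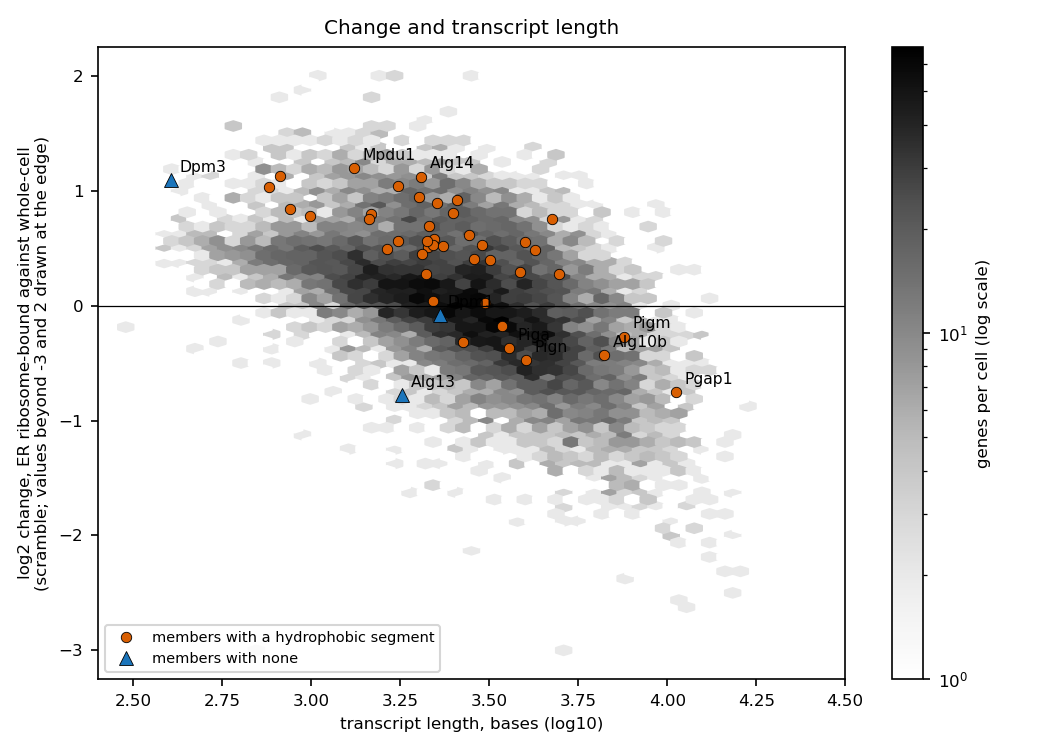
Log2 change between ER ribosome-bound and whole-cell RNA in scramble cells (y axis) against transcript length (x axis, log10 of bases) for all genes with a coding sequence (grey cells, darker for more genes) and the 44 genes (orange circles with, blue triangles without a hydrophobic segment). Pgap1, Pigm and Alg10b sit at the long end of the grey cloud, whereas Alg13 sits 1.05 below the trend for the length of its principal transcript, which is 1 of its isoforms.

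Hydrophobic segments, counted as windows of the kind marked above, were found in 41 of the 44 encoded proteins. Among all genes, those with at least 1 segment (4895 genes) had a median log2 change of 0.27, with 40.7% higher and 18.1% lower, and those without (9307 genes) a median of -0.04, with 22.4% higher and 31.1% lower. The 41 had a median of 0.53, with 31 higher and 5 lower. The 3 without were Alg13 (lower), Dpm1 (not called) and Dpm3 (higher), the last with a best window of 1.56, just under the threshold of 1.6.

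Of the genes that were lower on ER ribosomes, Alg10b, Pigm, Pign and Pgap1 each had a segment that started within the opening 20 residues and 6 to 9 segments in all. Piga had only the segment near its end shown above, and Alg13 none. Pigx, whose only segment in the coding sequence used starts at residue 122 of 150, was among the highest. That sequence comes from a transcript of 818 bases, whereas all exons of Pigx together span 2398. Only coding sequences that open with ATG were taken, and other forms of Pigx were not examined. Any link between the start of a segment and the change was not tested.

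Other genes of glycan synthesis were read beside the 44. Of 11 oligosaccharyltransferase subunits, which transfer the finished glycan, 9 were higher in scramble cells and none lower, with a median log2 change of 0.90, from Stt3a (-0.12, not called) to Dad1 (1.45). Of 14 further genes of dolichol, glycan quality control and GPI steps 10 were higher and none lower (median 0.47, from Pigl at 0.03 to Pgap3 at 1.25). Pigyl, for which RefSeq lists Pigy as a synonym, is among them at 0.75.

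Golgi enzymes and transporters that process N-glycans gave 13 of 22 higher and 2 lower (median 0.28, from Man2a1 at -0.50 to Mgat4b at 0.85). The 12 genes that make the nucleotide sugars in the cytosol gave 2 higher and 2 lower with a median of 0.10, from Gfpt1, the entry enzyme of the hexosamine pathway, at -0.75 to the phosphomannomutase Pmm1 at 0.54. These are counts beside the background of 25.1% higher and 25.3% lower, and no difference between the lists was tested.

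**Figure D4:**
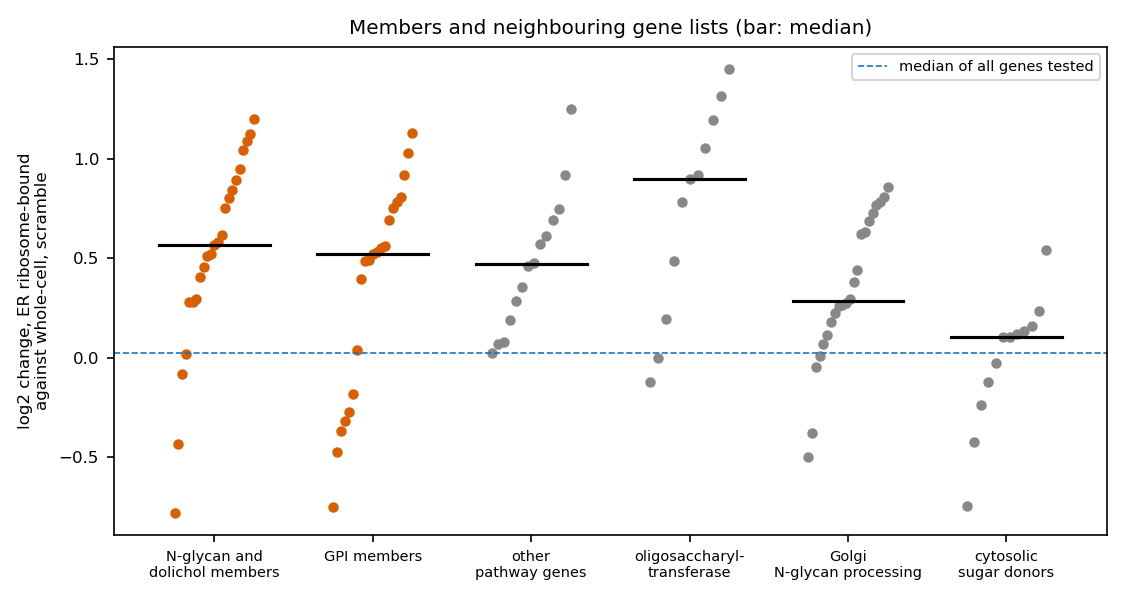
Log2 change between ER ribosome-bound and whole-cell RNA in scramble cells (y axis) for the N-glycan and GPI genes described here (orange) and 4 related lists (grey, x axis), each point a gene and each bar a median. The medians run from 0.10 for cytosolic sugar donors to 0.90 for oligosaccharyltransferase, beside 0.02 for all genes (dashed).

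Whether the knockdowns changed these genes was asked within each fraction and as the change of the ratio between fractions. Both siRNAs were compared with the same scramble libraries. No gene of the 44 was called in any of these 6 comparisons, by edgeR's quasi-likelihood test or by DESeq2. On ER ribosomes 1.17% of all genes were called after Nmd3 siRNA and 2.68% after Gnl3 siRNA. In whole-cell RNA 0.166% and 0.812% were called. These backgrounds moved with single libraries: leaving out each in turn gave 23 to 366 genes in place of 206 on ER ribosomes after Nmd3 siRNA and 70 to 1173 in place of 472 after Gnl3 siRNA. In whole-cell RNA it gave 8 to 1024 in place of 29 and 17 to 292 in place of 142. The lowest of these 4 counts came without scramble ER-ribosome replicate 3, scramble ER-ribosome replicate 2, Nmd3 siRNA whole-cell replicate 1 and Gnl3 siRNA whole-cell replicate 1. The highest came without Nmd3 siRNA ER-ribosome replicate 2, on both occasions, Nmd3 siRNA whole-cell replicate 3 and Nmd3 siRNA whole-cell replicate 1. For the change of the ratio 0% of all genes were called by edgeR after either siRNA, and DESeq2 called 2 genes and 0 genes.

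On ER ribosomes after Nmd3 siRNA 38 of the 44 log2 changes were above 0, with a median of 0.11 (50.5% of all genes above 0). Of the 44, 9 had an unadjusted p under 0.05, all of them positive, beside 11.6% of all genes in either direction. The lowest p was that of the transamidase subunit Pigs, at 84.2 and 84.2 CPM in scramble and at 90.0, 107.5 and 96.4 CPM after Nmd3 siRNA. All Nmd3 siRNA libraries were above both scramble libraries, and the change was 0.23 ± 0.07 (edgeR's quasi-likelihood test, adjusted p = 0.11). In whole-cell RNA 12 of the 44 changes were above 0, with a median of -0.08 (49.7% of all genes above 0). Of the 44, 6 had an unadjusted p under 0.05, 2 positive and 4 negative, beside 9.69% of all genes. The whole-cell median was -0.02, with 19 above 0, without Nmd3 siRNA replicate 1 and -0.15, with 10 above 0, without replicate 3, and it was -0.05 without scramble replicate 2. The ER-ribosome median was 0.07, with 32 above 0, without Nmd3 siRNA replicate 2.

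For the ratio of ER ribosomes to whole cell after Nmd3 siRNA, 38 of the 44 changes were above 0 (52.1% of all genes). The median was 0.15 beside 0.01 over all genes. Of the 44, 8 had an unadjusted p under 0.05, all positive, beside 5.9% of all genes in either direction. The lowest adjusted p was that of Pigb, 0.69 by edgeR's quasi-likelihood test, with a change of 0.42 ± 0.13. The highest change was that of Pigu, 0.55 ± 0.20. Pigu was at 18.0, 23.6 and 22.5 CPM in scramble and 14.1 and 19.6 CPM in Nmd3 siRNA whole-cell RNA, and at 31.0 and 30.2 CPM against 29.3, 39.5 and 35.8 CPM on ER ribosomes. The siRNA groups of Pigu overlapped in both fractions. The median of the 44 changes of the ratio was 0.10, with 36 above 0, without Nmd3 siRNA ER-ribosome replicate 2 and 0.24, with 37 above 0, without Nmd3 siRNA whole-cell replicate 3.

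This comparison rested on few libraries. Leaving out Nmd3 siRNA whole-cell replicate 3 leaves replicate 1 alone, with that library assumed to vary like the other groups. The change of the ratio then rose from 0.41 to 0.75 for Dpagt1, 0.29 to 0.72 for Dpm2, 0.32 to 0.54 for Pigf, 0.24 to 0.47 for Pigt and 0.55 to 0.84 for Pigu. In whole-cell RNA the change fell from -0.17 to -0.25 for Alg13, -0.21 to -0.52 for Dpagt1, -0.207 to -0.625 for Dpm2 and -0.35 to -0.63 for Pigu. The genes named are those that passed the threshold in that fit, where calls over all genes rose as well. The remaining replicate 1 had the lowest mitochondrial share of the kept whole-cell libraries, 1.15%, and held Dpagt1 at 13.5 CPM, where replicate 3 held 19.5 CPM and the scramble libraries 18.2 to 20.6 CPM. Without Nmd3 siRNA ER-ribosome replicate 1, Pigs was called on ER ribosomes (log2 change 0.29, edgeR's quasi-likelihood test, adjusted p = 0.028).

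After Gnl3 siRNA 33 of the 44 changes on ER ribosomes were above 0, beside 49.5% of all genes. The median of the 44 was 0.05, or 0.08 without Gnl3 siRNA replicate 1. An unadjusted p under 0.05 was found for 5 of the 44, all positive, beside 14.3% of all genes in either direction. The lowest was that of Dpagt1, at 28.0 and 30.2 CPM in scramble and at 32.4, 36.2 and 35.3 CPM after Gnl3 siRNA, without overlap and with a change of 0.24 ± 0.08 (edgeR's quasi-likelihood test, adjusted p = 0.15). In whole-cell RNA 20 changes were above 0, beside 48.7% of all genes. Their median over the 44, -0.01, turned to 0.0016 without Gnl3 siRNA replicate 2 and 0.001 without scramble replicate 2. It was -0.03 without scramble replicate 1 or 3 and -0.05 without Gnl3 siRNA replicate 1. An unadjusted p under 0.05 was found for 2 of the 44, beside 8.5% of all genes. The ratio between fractions had 29 changes above 0, beside 50.8% of all genes. The median of the 44 was 0.05, or 0.09 without Gnl3 siRNA whole-cell replicate 1 and 0.08 without scramble ER-ribosome replicate 2. Only the change of Dpagt1 had an unadjusted p under 0.05, beside 3.55% of all genes. Without Nmd3 siRNA ER-ribosome replicate 2, which shares the fit, Mpdu1 and Pigt were called higher on ER ribosomes after Gnl3 siRNA (log2 changes 0.13 and 0.15). That library held Gnl3 at 263 CPM, where the other two of its group held 164 and 179.8 CPM.

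Standard errors of the 44 log2 changes ranged from 0.05 to 0.21 on ER ribosomes and from 0.08 to 0.28 for the change of the ratio after either siRNA. Differences near the medians given above were thus not detectable gene by gene at this number of libraries.

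**Figure D5:**
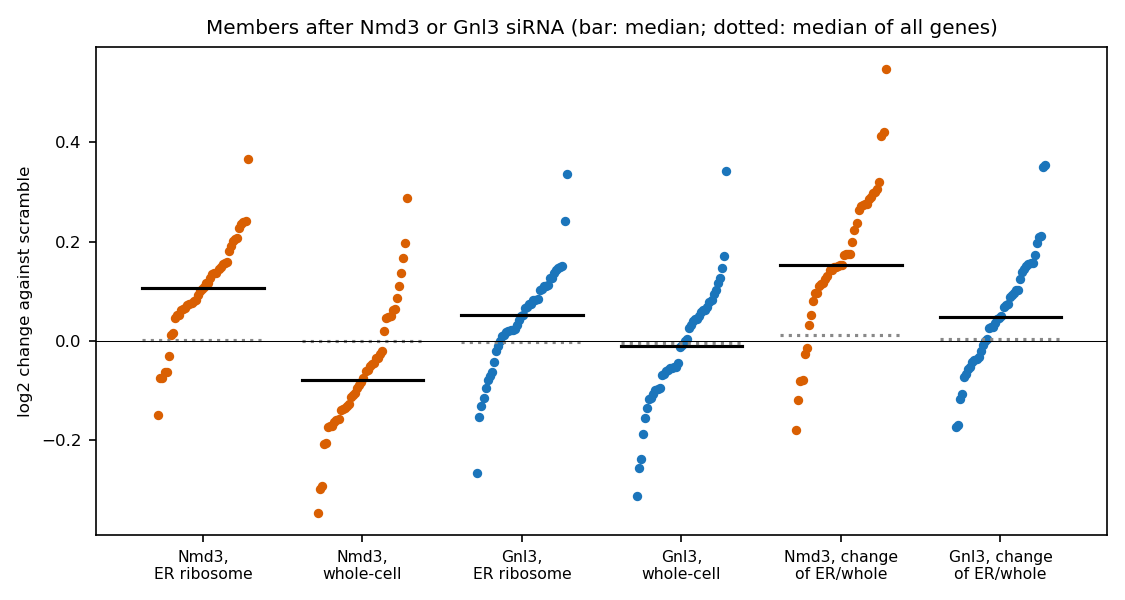
Log2 change against scramble (y axis) of the 44 genes after Nmd3 (orange) or Gnl3 siRNA (blue) on ER ribosomes, in whole-cell RNA and as the change of their ratio (x axis), each point a gene, bars the medians of the 44 and dotted lines those of all genes. The median is 0.11 on ER ribosomes and -0.08 in whole-cell RNA after Nmd3 siRNA, and 0.05 and -0.01 after Gnl3 siRNA, and no point was called.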

How the data were processed

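The authors deposited raw counts per gene, 1 library per file, made with STAR 2.7.9a and HTSeq 0.11.2 on GRCm39, per the submitters' processing notes. DESeq2 is named there without a version. The annotation release and the strand setting of counting are not given in the sources used here. Reads that HTSeq assigned to no feature made up 46.6% to 48.4% of a library. These and the other lines that name no gene stayed out of totals and tests.

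Symbols, lengths, coding sequences and overlaps came from GENCODE M21 (GRCm38), which named 52083 IDs. The builds differ, so no coordinates are given. The APPRIS principal transcript stood for each gene, with CCDS membership and then the longest coding sequence deciding ties. Coding sequences that did not open with ATG or did not hold whole codons were left out.

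Groups were compared in R 4.3.3 with edgeR 4.0.16 (filterByExpr, TMM, robust glmQLFit, glmQLFTest): 15 libraries in 1 fit for fractions and ratios, 8 ER-ribosome or 7 whole-cell libraries for siRNAs. Errors are standard errors, the absolute log2 change divided by the square root of F. Library values are CPM, counts per M gene counts. The trend was a loess with span 0.75. Scripts were tested on simulated data. Alternatives were DESeq2 1.42.0, other scalings, no filter, a replicate block and left-out libraries.

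Fractions share a lysate by design, yet residuals of the same lysate correlated at -0.03 to 0.02. The block moved no count of calls among the 44 genes by over 1.5 times.

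Genes and lists were chosen with earlier results of these data known. All 44 genes are named by role. Library values are given for the 5 highest and 5 lowest called, for Dpagt1, Alg13, Alg14, Dpm1, Dpm3, Piga, Pigt and Ganab, and for any called after an siRNA. Library values of Pigs, Pigu and Dpagt1 after siRNA were chosen after they were seen. Replicates are labelled biological, and if cultures were not independent the p-values measure only the spread between these samples.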

Additional observations from a re-analysis of the deposited data

How the results depend on the processing

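In scramble cells no called log2 change between fractions among the 44 genes changed sign under the alternatives run. Signs of single genes were not compared in this way after Nmd3 or Gnl3 siRNA. The uncalled median after Gnl3 siRNA in whole-cell RNA, -0.01, ran from -0.05 to 0.0016 when libraries were left out. With all deposited libraries the number of the 44 genes called between fractions fell from 38 to 16 in scramble cells and from 39 to 23 after Nmd3 siRNA, with a wider spread in the fit. With no filter on low counts 1 gene, Pigs, was called on ER ribosomes after Nmd3 siRNA. Leaving out each library in turn gave 32 to 38 calls between fractions in scramble, 36 to 39 after Nmd3 siRNA and 35 to 40 after Gnl3 siRNA. For the change of the ratio it gave 0 to 5 calls after Nmd3 siRNA and 0 to 0 after Gnl3 siRNA. Within ER ribosomes it gave 0 to 1 calls after Nmd3 siRNA and 0 to 2 after Gnl3 siRNA, and within whole-cell RNA 0 to 4 and 0 to 0. Where this left a single library in a group, that library was assumed to vary like the others. The highest counts after Nmd3 siRNA for the change of the ratio and for whole-cell RNA came from such a fit. Calls over all genes rose in that fit as well.

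With the replicate block, calls between fractions were 38, 38 and 38 in scramble, Nmd3 and Gnl3 siRNA cells, and no gene of the 44 was called in the 6 siRNA comparisons. Libraries that share only a number within a fraction had residual correlations of -0.05 to 0.04. Under the block 126 of all genes were called on ER ribosomes after Nmd3 siRNA and 258 after Gnl3 siRNA, against 206 and 472 without it. DESeq2, DESeq2 size factors, library totals, fits of 1 siRNA alone and fits of both fractions together kept the counts of called genes among the 44 within 1.5 times. Leaving out 1 library moved the calls over all genes on ER ribosomes after Nmd3 siRNA to 23 (6 higher, 17 lower, without scramble ER-ribosome replicate 3) and up to 366, from 115 higher and 91 lower. The split of calls over all genes after Gnl3 siRNA on ER ribosomes was 266 higher and 206 lower, or 304 and 175 with library totals. The median after the coding length trend in scramble cells was 0.44 with span 0.5 and with all libraries, and 0.38 with transcript length. With all libraries, rho between coding length and log2 change after Nmd3 siRNA went from -0.49 to -0.18 over all genes. Over the 44 it went from -0.44 to -0.06. After Gnl3 siRNA it went from -0.49 to -0.43 over all genes and from -0.43 to -0.23 over the 44. In scramble cells it was -0.53 and -0.48 with all libraries.

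The 2 scramble ER-ribosome libraries limit every comparison with scramble on ER ribosomes, and genes under about 10 CPM such as Dpm1, Pigc and Dolk have the widest errors. P-values of the siRNA comparisons share the scramble libraries.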
